A study of Mus musculus with 27 samples.

Results

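Mouse bone marrow-derived macrophages (BMDM) stimulated once with CpG DNA were compared with BMDM stimulated with it a second time. The comparison took 6 of the 27 arrays of the series, 3 of CpG acute and 3 of CpG re-stimulated cells, and 25737 of the 55681 non-control probes of the array, those that the scanner software marked as well above background on 2 or 3 arrays of the same group. All cells came from the bone marrow of female C57BL/6 mice aged 6 to 8 weeks and were differentiated for 7 days in medium conditioned by L929 cells, which supplies the macrophage growth factor Csf1. CpG acute cells were harvested 4 h after CpG was added. CpG re-stimulated cells were kept with CpG for 24 h, washed, rested in fresh medium for 1 h and given CpG for 4 h again. Naive cells, given no ligand, and cells treated on the same schedule with Poly(I:C) at 10 µg/ml or Pam3CSK4 at 100 ng/ml are used beside them. The sample labels give the CpG dose of both groups as 100 µM, which is not the dose in the study's methods. Before stimulation the cells were moved to medium that was not conditioned by L929 cells. The re-stimulated cells were therefore also a day older, had been washed and had been longer without the conditioned medium. No array held cells that were pretreated, washed and not stimulated again. Each array measured Cy3-labelled RNA of a whole culture, and values are log2 intensities as the authors normalized them.

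CpG DNA is a synthetic mimic of the unmethylated DNA of microbes. It is taken up into endosomes, where it is bound by Toll-like receptor 9 (TLR9), which signals through the adaptor Myd88 to NF-kB, MAP kinases and interferon regulatory factors. Macrophages then transcribe cytokines and chemokines together with inhibitors of the same pathway. After a first exposure, some of these genes respond less to a second one, which is called tolerance, while others respond as before or more.

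All 10 macrophage markers checked, among them Csf1r, Cd68 and Adgre1, were well above background on all 6 arrays. CpG acute replicate 3 stood apart from the other acute arrays. Its correlation with them over the tested probes was 0.960 and 0.969, against 0.982 between acute replicates 1 and 2 and 0.981 to 0.986 within the re-stimulated group, and correlations between the groups were 0.948 to 0.971. Genes of innate immunity were among those that differed. Ifnb1, which encodes interferon beta, had log2 levels of 9.05, 8.302 and 12.25 in acute replicates 1, 2 and 3, and Lcn2, which encodes the iron-sequestering protein lipocalin 2, had 13.65, 14.21 and 10.22. The summed linear intensity of 9 markers of neutrophils and their precursors was 21034.5, 38120.1 and 3630.82 on the acute arrays and 7488.7, 8140.87 and 4177.64 on the re-stimulated arrays. All 9 were well above background on 2 or 3 arrays of a group, and 3 of them on all 6 arrays. In RNA of a whole culture, fewer cells of a type and less RNA per cell cannot be told apart. Each slide held 1 acute and 1 re-stimulated CpG array, with the acute array always at position 7 and the re-stimulated array at position 8, so position and group cannot be told apart.

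Of the 25737 probes, 917 (3.56%) passed an adjusted p of 0.05 and a 1.5-fold change in limma. Lower levels on re-stimulation were called for 439 probes (1.71%) of 373 genes, and higher levels for 478 probes (1.86%) of 436 genes. A total of 5573 probes had an unadjusted p under 0.05, and the median difference over all tested probes was 0.06. With the replicate number as a block, which is also the slide, 1177 probes were called (4.57%), 672 of them in both fits. Groups that did not overlap were found for 3067 probes (11.9%) lower and 4234 probes (16.5%) higher on re-stimulation. The number of calls rested on single arrays. It was 1922 without CpG acute replicate 3, 81 without acute replicate 1 and 38 without acute replicate 2, and 48, 17 and 135 without re-stimulated replicates 1, 2 and 3. A total of 12 probes were called in all 6 of these fits. Of the 90 genes chosen by rule for naming, 49 were called, 33 lower and 16 higher. The groups of all 49 did not overlap, so that leaving out 1 array could not change their direction. Of them, 0 kept the call in all 6 fits with 1 array left out. The highest adjusted p of a gene over those fits was between 0.0503 and 0.152. Cfb, Csf1 and Slpi came closest, each being called in 5 of the 6 fits and reaching 0.0503 without re-stimulated replicate 2. An exact permutation test of 3 against 3 arrays cannot give a two-sided p under 0.1.

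Arg1, the enzyme that breaks arginine down to ornithine and urea, had the largest rise of any called gene. Its probe (chr10:24636194-24636253, mm9) had log2 levels of 3.903, 3.27 and 1.76 on the acute arrays and 9.87, 12.18 and 8.65 on the re-stimulated arrays. All 3 re-stimulated arrays were far above the acute arrays, on none of which the probe was well above background. The rise was 129-fold (measured difference 7.26, 95% interval 4.97 to 9.54, SE 0.96, adjusted p = 0.0245). For such genes, not well above background in 1 group, the fold sets the bright group's mean against the dim group's mean. In the dim group, any array below the dimmest signal that its scanner marks as well above background is raised to that signal. That signal was at log2 2.04 to 2.85, and acute replicates 1 and 2 lay above it without the mark. The fold is therefore no lower limit of the change. Where no array lies below that signal, the fold equals that between the measured means. Naive cells had 3.18, 3.14 and 2.72, so that the acute arrays lay at the naive level. Cfb encodes complement factor B, a protease of the alternative complement pathway. It had log2 levels of 10.01, 10.63 and 10.77 on the acute arrays and 14.39, 15.11 and 15.62 on the re-stimulated arrays (difference 4.57, SE 0.36, adjusted p = 0.00914). In naive cells it had 5.67, 6.04 and 6.98, so Cfb was high in both CpG groups and higher still after the second dose. Naive replicate 3 is given for completeness. It had 74.6% of its probes well above background, against 43.7% to 49.4% on the other naive and the CpG arrays.

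Enpp2 encodes autotaxin, the secreted enzyme that makes lysophosphatidic acid. Its levels were 2.31, 2.896 and 4.28 on the acute and 9.07, 7.68 and 7.58 on the re-stimulated arrays (difference 4.95, SE 0.60, adjusted p = 0.0211). Tm4sf1, a membrane protein of the tetraspanin-like L6 family, had 6.06, 6.54 and 5.58 on the acute and 8.69, 11.44 and 10.38 on the re-stimulated arrays (4.11, SE 0.67, adjusted p = 0.0385). The groups were clear of each other for both genes, and Enpp2 was well above background on 1 of the 3 acute arrays. Ly6f and Ly6i belong to the Ly6 family of small surface proteins anchored in the membrane by a lipid, whose members are similar in sequence, so that a probe of one may also measure another. Ly6f rose by 5.17 (adjusted p = 0.0441) and Ly6i by 4.17 (adjusted p = 0.0245). Sprr2d, of the small proline-rich proteins of the epidermis, rose 21.8-fold (adjusted p = 0.0242) and BC035044 26.8-fold (adjusted p = 0.0113). Neither was well above background on any acute array. The last of the 10 largest rises, 3110047P20Rik (Nwd2 in RefSeq, 4.80) and Nhlh1, a helix-loop-helix transcription factor of neurons (4.2), came from probes with a repeat, described next.

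**Figure D1:**
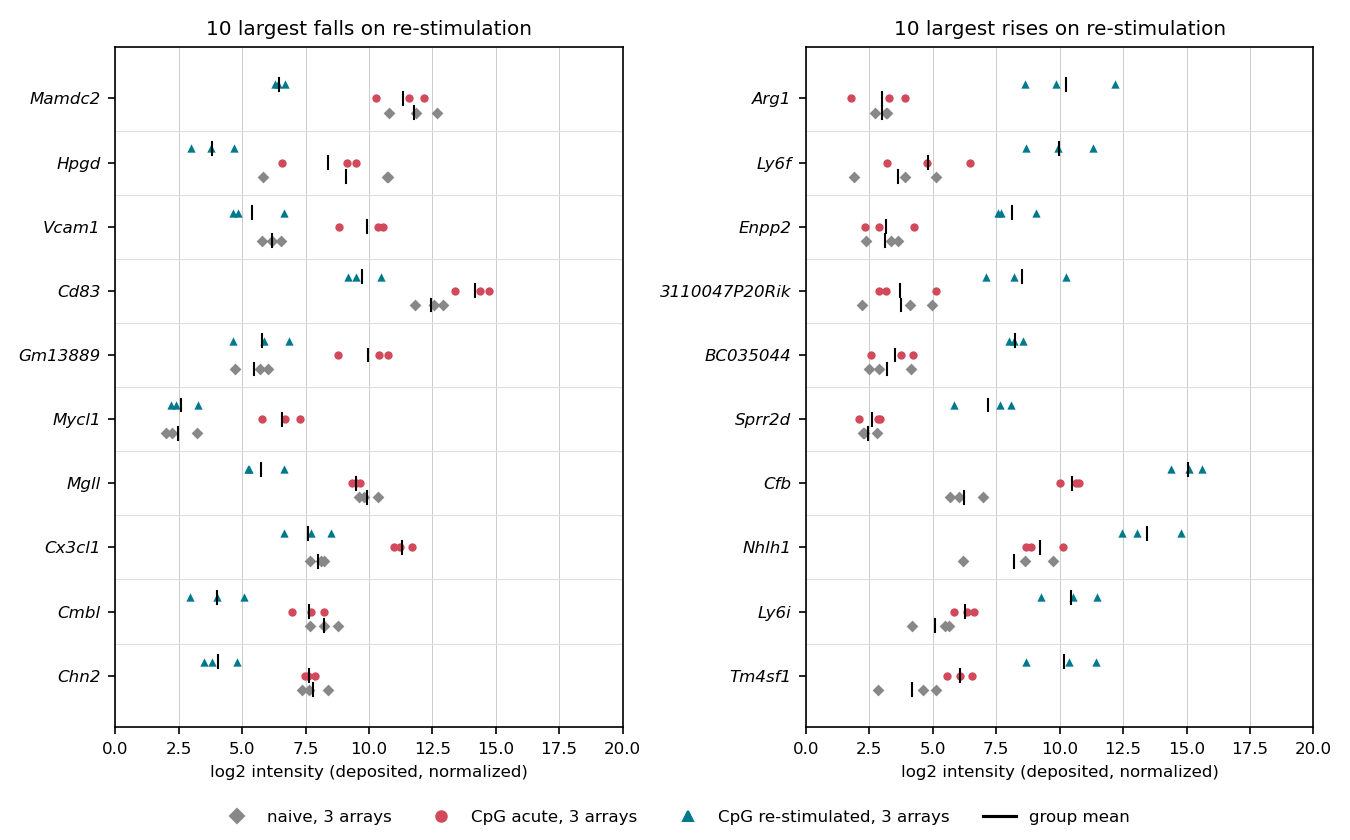
Log2 intensity on each naive, CpG acute and CpG re-stimulated array for the 10 genes with the largest called fall (left) and the 10 with the largest called rise (right), with 1 row a gene and black bars for group means. The 3 re-stimulated arrays lie wholly below the 3 acute arrays in every row on the left and wholly above them in every row on the right, which the choice of genes required.

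Many of the probes called higher shared a sequence. The letters GTGTGTG stood in 408 of the 25737 tested probes (1.59%), in 58 of the 478 called higher (12.1%) and in 2 of the 439 called lower (0.456%). Their median difference was 0.78, and 0.82, 1.01 and 0.67 for replicates 1, 2 and 3. Where the run was 10 bases or longer (182 probes) the median was 1.87, with 50 called higher and 0 lower. Probes with runs of the same length of alternating A and C, G and A, C and T or A and T, or of repeated CAG, had medians of -0.13 to 0.07. The pattern was chosen after its values were seen, and its part in the calls was not tested. In the following stretches of 30 bases from 4 such probes, shown to make the shared run visible, capitals mark the alternating G and T (positions are of the whole 60-base probe, mm9).
Armcx3 (chrX:131295418-131295477): gattacatatTGTGTGTGTGaGTGTGTGTG
Mef2a (chr7:74379575-74379634): tgttggtgtgaGTGTGTGTGTaTGTGTGgg
2310008H09Rik (chr7:125985766-125985825): GTGTGTaTGTGTGTGTGagacttaataact
Ehmt1 (chr2:24646395-24646454): GTGTGTGTGTGaGTGTGTGTGactcttcta
The differences of these probes were 3.999, 3.53, 3.098 and 2.94. Mef2a, a transcription factor of muscle and other cells, shows the spread between probes of 1 gene. The probe printed here went from 12.11, 13.56 and 12.099 on the acute arrays to 16.13, 17.06 and 15.16 on the re-stimulated arrays, while its other tested probes differed by 0.10 and 0.27. Of the 58 genes, 17 had other tested probes without the run, 30 in all. Of these, 0 were called, and their median difference was -0.001 (range -1.06 to 1.22). The rises of Nhlh1 and 3110047P20Rik are therefore given as rises of those probes.

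A second shared sequence was that of Gapdh, the glycolytic enzyme often used as a reference transcript. All 8 of its probes had higher means on re-stimulation, by 0.50 to 1.17, and 5 were called. With them, 62 tested probes shared 16 bases or more with a Gapdh probe, directly or through one another, under many gene names. Of the 62 probes, 55 were called higher and 0 lower, with a median difference of 1.06. Without the GT runs and the Gapdh sequence, 365 of the probes called higher and 437 of those called lower remained. When the model was fitted again without these probes, 304 were called higher and 378 lower.

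**Figure D2:**
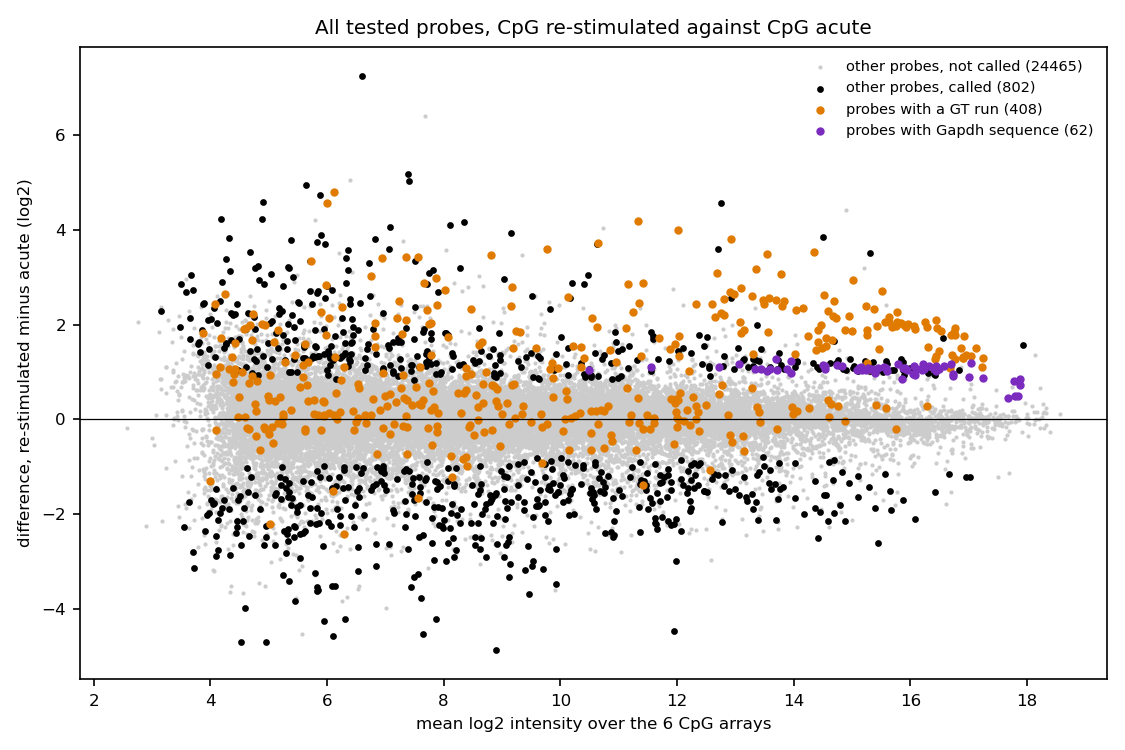
Difference between group means (re-stimulated minus acute, log2, vertical) against mean log2 intensity over the 6 CpG arrays (horizontal) for the 25737 tested probes, with called probes in black, probes holding GTGTGTG in orange and probes sharing Gapdh sequence in purple. Orange points spread upward to 4.80 and purple points sit between 0.44 and 1.28, while probes called lower are nearly all black.

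The 10 largest falls were of genes with different roles, and 4 of them ended at signals not well above background on any re-stimulated array. Mamdc2, a matrix proteoglycan with MAM domains, had log2 levels of 12.16, 11.59 and 10.27 on the acute arrays and 6.68, 6.404 and 6.299 on the re-stimulated arrays (difference -4.87, SE 0.47, adjusted p = 0.0126). Naive cells had 12.67, 11.87 and 10.79, so that it was low in the re-stimulated cells alone among these 3 groups. Hpgd, the dehydrogenase that inactivates prostaglandins, had 9.47, 9.15 and 6.57 on the acute and 3.79, 4.68 and 3.002 on the re-stimulated arrays. It was well above background on none of the re-stimulated arrays, a fall of 23.8-fold (adjusted p = 0.0418). The 95% interval of its difference was -6.53 to -2.62. Mgll, the lipase that splits monoacylglycerols into fatty acids and glycerol, had 9.65, 9.496 and 9.33 on the acute and 5.23, 5.28 and 6.66 on the re-stimulated arrays, and all 3 of its probes were called (-4.2 to -3.53). Naive levels of Hpgd were 10.697, 10.73 and 5.81 and of Mgll 10.35, 9.61 and 9.81. Mgll was thus at a like level in naive and acute cells and lower in re-stimulated cells.

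Vcam1, an adhesion molecule that binds integrins of leukocytes, had 10.37, 10.55 and 8.802 on the acute and 4.82, 4.65 and 6.66 on the re-stimulated arrays (-4.53, SE 0.68, adjusted p = 0.031, adjusted p = 0.0574 with the replicate block). Naive cells had levels of 5.79, 6.18 and 6.55, which overlap with the re-stimulated levels, and a second probe of the gene differed by -2.13 and was not called. Cd83, a surface protein of activated antigen-presenting cells, had 14.396, 14.73 and 13.39 on the acute and 9.48, 9.18 and 10.47 on the re-stimulated arrays (-4.46, SE 0.46, adjusted p = 0.0155). All 3 re-stimulated arrays lay below the 3 naive arrays, at 11.83, 12.57 and 12.91. Mycl1, which encodes the transcription factor L-Myc, fell 15.7-fold (adjusted p = 0.0177) from 5.78, 7.27 and 6.68 on the acute arrays. Neither the re-stimulated nor the naive arrays were well above background for it. Gm13889 fell by 4.21 (adjusted p = 0.0385, and 0.0667 with the block). Cmbl, a hydrolase, and Chn2, a regulator of the GTPase Rac, fell 12.4-fold and 12.2-fold (adjusted p = 0.0345 and 0.0126). Both ended at signals not well above background on any re-stimulated array.

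The sequences before the transcription starts of the largest falls and rises are given here for the genes that RefSeq's promoter table held, the first 3 of each direction (250 bases upstream, 5′ to 3′, build GRCm38.p6). Capitals mark a match to a searched motif.
Hpgd (chr8:56294302-56294551, plus strand): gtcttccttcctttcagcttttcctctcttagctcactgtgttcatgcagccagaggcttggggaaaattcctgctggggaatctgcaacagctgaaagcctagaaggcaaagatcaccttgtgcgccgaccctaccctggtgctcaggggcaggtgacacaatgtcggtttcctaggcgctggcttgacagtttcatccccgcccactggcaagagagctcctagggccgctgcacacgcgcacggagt
Mycl1, Mycl in RefSeq (chr4:122995681-122995930, plus strand): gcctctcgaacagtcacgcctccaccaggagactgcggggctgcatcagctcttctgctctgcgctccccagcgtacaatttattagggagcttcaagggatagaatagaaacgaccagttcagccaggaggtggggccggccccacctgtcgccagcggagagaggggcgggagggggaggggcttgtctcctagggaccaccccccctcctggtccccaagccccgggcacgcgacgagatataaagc
Mgll (chr6:88724162-88724411, plus strand): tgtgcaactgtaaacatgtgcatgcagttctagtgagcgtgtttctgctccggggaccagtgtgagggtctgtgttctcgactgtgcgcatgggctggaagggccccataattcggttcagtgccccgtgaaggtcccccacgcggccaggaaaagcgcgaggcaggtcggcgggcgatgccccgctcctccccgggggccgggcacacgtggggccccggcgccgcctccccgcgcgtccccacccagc
Ly6f (chr15:75268171-75268420, plus strand): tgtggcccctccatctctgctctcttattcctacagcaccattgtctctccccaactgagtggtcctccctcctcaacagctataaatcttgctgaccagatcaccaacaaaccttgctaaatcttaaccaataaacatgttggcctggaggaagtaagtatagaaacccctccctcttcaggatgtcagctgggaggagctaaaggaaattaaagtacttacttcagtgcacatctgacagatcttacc
3110047P20Rik, Nwd2 in RefSeq (chr5:63648853-63649102, plus strand): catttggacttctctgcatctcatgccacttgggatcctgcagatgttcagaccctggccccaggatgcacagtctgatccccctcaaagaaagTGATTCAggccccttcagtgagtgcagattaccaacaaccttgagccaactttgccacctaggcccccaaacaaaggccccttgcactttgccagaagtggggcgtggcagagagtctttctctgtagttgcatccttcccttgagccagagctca
BC035044 (chr6:128891125-128891374, minus strand): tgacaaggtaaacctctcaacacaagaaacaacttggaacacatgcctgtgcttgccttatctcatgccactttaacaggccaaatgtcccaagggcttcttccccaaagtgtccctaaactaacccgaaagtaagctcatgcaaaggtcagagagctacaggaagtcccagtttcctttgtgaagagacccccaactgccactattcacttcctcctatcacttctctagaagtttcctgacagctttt
The motifs, each searched on both strands, were kappa B (GGNNTTTCC), bound by NF-kB, the interferon response element (GAAANNGAA), AP-1 (TGANTCA), the cell cycle homology region (TTTGAA) and the cyclic AMP response element (TGACGTCA). The single match among these 6 promoters was AP-1 in 3110047P20Rik, whose rise was that of a probe with the GT run. Promoters were found for 242 of 371 genes called lower and 163 of 332 called higher, after leaving out the probes with the GT run or Gapdh sequence. The kappa B letters stood in 9.5% of those lower and 6.13% of those higher, beside 5.27% of 10465 genes tested and 4.84% of all 27025 promoters. The interferon response element stood in 7.85% and 6.13%, beside 6.6% of genes tested, AP-1 in 5.79% and 5.52%, beside 4.6%, and the cyclic AMP response element in 3.72% and 1.84%, beside 2.69%. The cell cycle homology region stood in 14% and 10.4%, beside 11.1%. These shares are a description of letters in a window.

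Among cytokines, 6 of the 24 tested fell and 0 rose, with a median difference of -0.66. Beside them, 1.71% of all probes were called lower, and the median of all probes was 0.06. Il15, which sustains natural killer and memory T cells, had log2 levels of 10.403, 10.85 and 11.12 on the acute and 6.895, 7.34 and 8.14 on the re-stimulated arrays (-3.33, SE 0.36, adjusted p = 0.016). Csf1, the growth factor of macrophages themselves, had 10.998, 11.41 and 10.58 on the acute and 7.56, 7.99 and 7.88 on the re-stimulated arrays (-3.19, SE 0.26, adjusted p = 0.00914). Its 3 tested probes differed by -3.19 to -1.99, and 1 of them was called. Clcf1, a ligand of the interleukin-6 family, fell by 2.27 (adjusted p = 0.0185) and Il27, a regulator of T cell responses, by 2.20 (adjusted p = 0.0175). The remaining calls, Il18 (-2.19) and Tnfsf9 (-1.73), lie outside the rule for named genes. In 10 of the 24 every re-stimulated array lay below every acute array, beside 11.9% of all probes.

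The cytokines most often measured in tolerance did not move alike. Tnf had log2 levels of 17.34, 17.09 and 18.05 on the acute and 15.74, 15.06 and 16.34 on the re-stimulated arrays. The groups did not overlap, and the difference of -1.78 had an adjusted p of 0.0595 (and 0.0255 with the replicate block, which called it). Il12b, the shared subunit of interleukins 12 and 23, had 15.14, 14.63 and 14.88 on the acute and 12.82, 11.09 and 13.79 on the re-stimulated arrays, groups that did not overlap either (difference -2.32, adjusted p = 0.1). The other subunits went different ways. Il23a was not well above background on any re-stimulated array and 3.44-fold lower there (adjusted p = 0.111, and 0.04 with the block). Il12a was not well above background on any acute array. It was 2.94-fold higher on the re-stimulated arrays, on 2 of which it was measured (adjusted p = 0.0663, and 0.0497 with the block). Il6 had 13.895, 14.16 and 16.24 on the acute and 14.95, 15.48 and 15.87 on the re-stimulated arrays, so that its groups overlapped through acute replicate 3 (difference 0.67, 95% interval -0.83 to 2.17, adjusted p = 0.584). Naive cells had 2.84, 2.47 and 3.55, far below both. The groups of Il10, Il1b, Il1a, Csf3 and Ifnb1 overlapped too, with differences of 0.19, 0.09, 1.45, 1.36 and -0.06. For Ifnb1 the 95% interval ran from -2.45 to 2.33, and the difference was 1.13 without acute replicate 3. For Il10 and Il1b it was -0.12 and -0.61 without that array.

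Among chemokines, 4 of 21 tested fell and 0 rose, beside 1.71% of all probes lower and 1.86% higher. Their median was -0.54, and -1.22 without acute replicate 3. Cx3cl1, the membrane-bound chemokine fractalkine, had 10.99, 11.72 and 11.22 on the acute and 8.48, 7.700 and 6.66 on the re-stimulated arrays (-3.69, SE 0.47, adjusted p = 0.0222). The neutrophil attractants Cxcl1 and Cxcl2 were lower but still far above naive cells. Cxcl1 had 16.36, 16.104 and 15.39 on the acute, 13.04, 14.13 and 14.25 on the re-stimulated and 4.22, 5.73 and 9.101 on the naive arrays (-2.14, SE 0.40, adjusted p = 0.0454, and adjusted p = 0.0732 with the block). Cxcl2 had 15.88, 15.34 and 15.801 on the acute, 13.13, 13.77 and 14.196 on the re-stimulated and 4.85, 6.49 and 9.73 on the naive arrays (-1.97, SE 0.31, adjusted p = 0.035). Ccl9, also high in naive cells, fell by 2.10 (adjusted p = 0.0385, and 0.0613 with the block). The attractants of monocytes and T cells Ccl2, Ccl3, Ccl4, Ccl5 and Cxcl10 differed by 0.68, -0.61, -0.35, 0.33 and -0.13, with adjusted p of 0.103 to 0.926. Ccl3 and Ccl4 were lower and Ccl5 higher on every re-stimulated array than on every acute array.

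**Figure D3:**
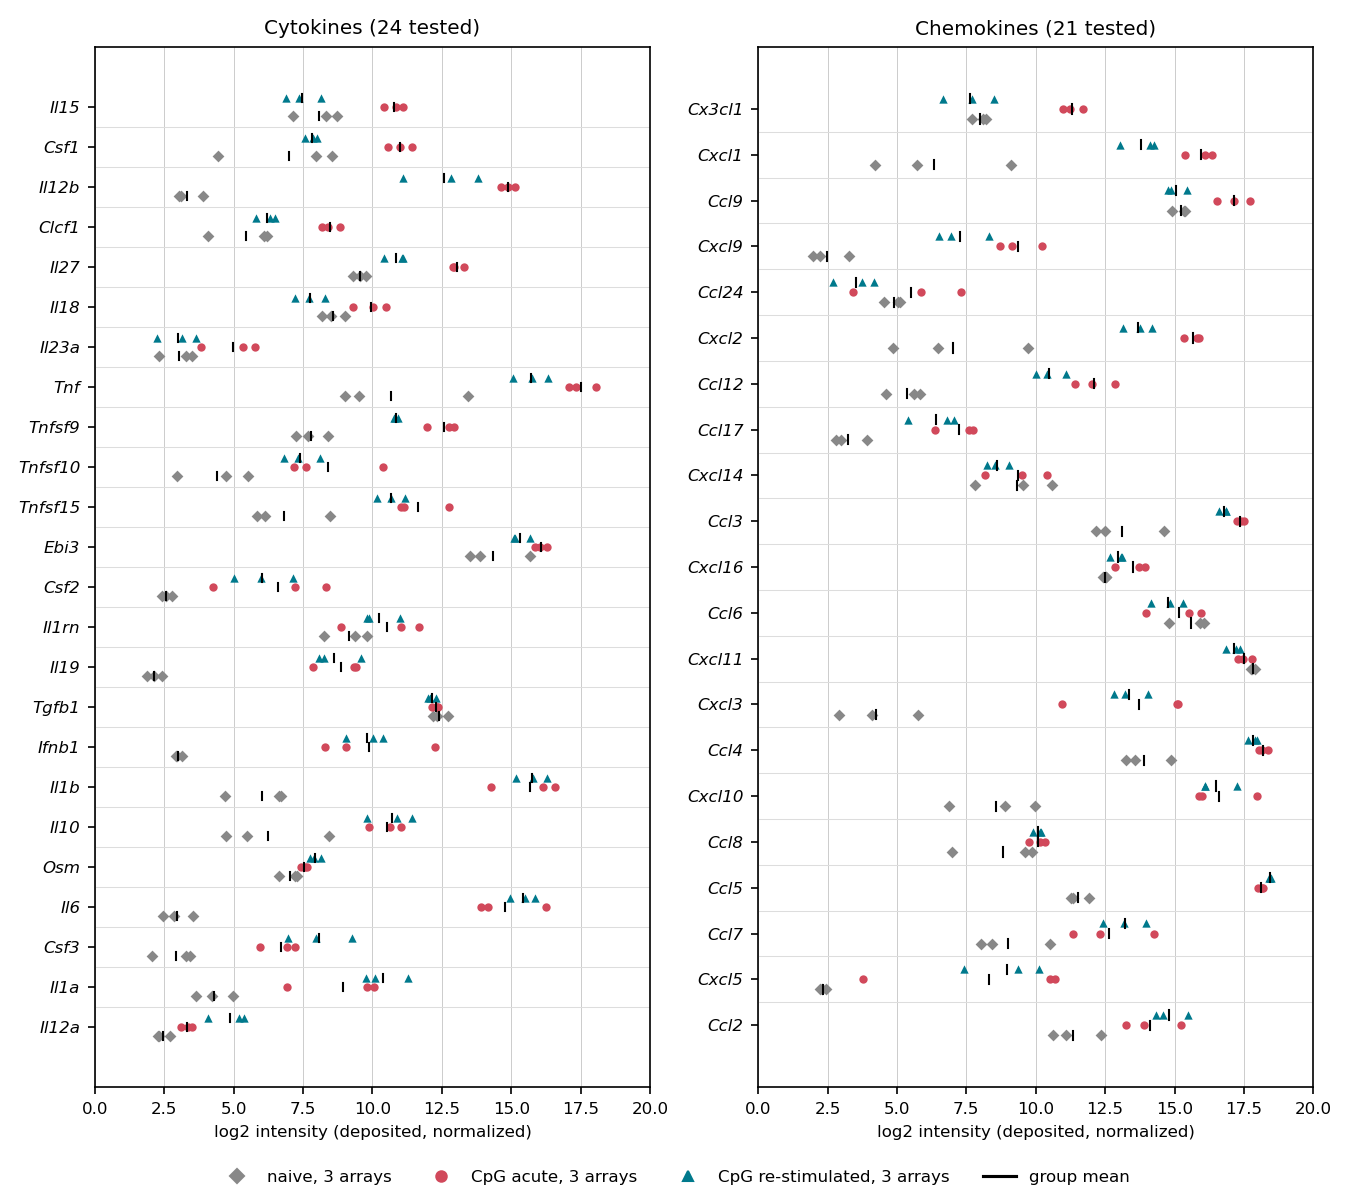
Log2 intensity on each naive, CpG acute and CpG re-stimulated array for the 24 cytokines (left) and 21 chemokines (right) tested, ordered by the difference between the CpG groups, with black bars for group means. From Il15 to Tnfsf9 and from Cx3cl1 to Cxcl9 the re-stimulated arrays lie left of the acute arrays, and in lower rows such as Il6, Il1b and Ccl2 the groups overlap. For 2 cytokines, among them Il12a, and for the chemokine Ccl5 the re-stimulated arrays lie wholly right of the acute arrays.

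The kappa B letters stood before several of these genes. Of the 33 named genes called lower, 24 were in the promoter table and 9 held a match. Beside them, the letters stood in 9.5% of the promoters of all genes called lower and 5.27% of those of genes tested. The named genes came largely from the gene lists and the fixed set of immune genes, so they are not a sample of the genes called lower. The 30-base stretches below show the match in capitals for 6 of them, chosen after their values were seen (GRCm38.p6), and Ccl9, Cmbl and Mrc1 held a match that is not shown.
Cxcl1 (chr5:90891164-90891193, plus strand): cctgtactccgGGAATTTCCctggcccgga
Cxcl2 (chr5:90903792-90903821, plus strand): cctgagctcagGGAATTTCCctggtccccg
Csf1 (chr3:107760605-107760634, minus strand): cgggccttgagGGAAAGTCCctaggggcca
Icam1 (chr9:21015776-21015805, plus strand): tacttcagtttGGAAATTCCtagatcgcag
Tnfaip3 (chr10:19015416-19015445, minus strand): gtcacgtgactGGAATTTCCatcggaaatc
Nlrp3 (chr11:59542581-59542610, plus strand): gcaagaaaccaGGGCTTTCCattaaaagaa
The 9 letters in capitals are the same in Cxcl1, Cxcl2 and Tnfaip3. Cxcl1, Cxcl2, Icam1 and Tnfaip3 held a second match, which differs in its letters and is not shown. A match says nothing of whether a factor was bound.

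In the list of NF-kB subunits and feedback inhibitors, 3 of 26 tested members fell and 0 rose (median -0.66). Beside them, 1.71% of all probes were called lower and 1.86% higher. In 12 members every re-stimulated array lay below every acute array, beside 11.9% of all probes. Nfkb1, which encodes the p50 subunit, had 12.700, 12.68 and 12.59 on the acute and 10.95, 10.87 and 11.22 on the re-stimulated arrays (-1.64, SE 0.17, adjusted p = 0.0155), and both its probes were called. Tnfaip3, the ubiquitin-editing inhibitor A20, had 15.04, 15.26 and 14.76 on the acute and 13.53, 13.49 and 14.12 on the re-stimulated arrays (-1.31, SE 0.25, adjusted p = 0.0453, and adjusted p = 0.0714 with the block). Cish, an inhibitor of cytokine receptor signalling through Stat5, had 11.22, 11.39 and 9.39 on the acute and 7.48, 7.77 and 7.58 on the re-stimulated arrays (-3.06, SE 0.52, adjusted p = 0.039). The calls thus took in an NF-kB subunit, the inhibitor A20 and, in Cish, an inhibitor of Stat5 signalling. Nfkbia, Bcl3, Socs3 and Socs1 differed by -0.35, -0.61, -0.49 and 0.53, with adjusted p of 0.36 or more.

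Tlr9, the receptor itself, had log2 levels of 10.41, 10.27 and 10.03 on the acute and 10.34, 10.29 and 10.12 on the re-stimulated arrays (difference 0.02, 95% interval -0.41 to 0.45). Of 24 tested components of the TLR9 pathway 1 rose and 0 fell, beside 1.86% of all probes higher and 1.71% lower. Their median was -0.05, with all between -0.87 and 1.17. The rise was that of Cnpy3, a chaperone that Toll-like receptors need to leave the endoplasmic reticulum, from 11.08, 10.86 and 11.201 on the acute to 12.11, 12.09 and 12.02 on the re-stimulated arrays (1.03, SE 0.17, adjusted p = 0.0385). Its other probe differed by 0.24 and was not called. Irf7, the interferon regulatory factor downstream of TLR9, differed by 1.17 (adjusted p = 0.12). Among 12 other Toll-like receptors and their partners, beside the same shares of all probes, 1 fell and 0 rose (median -0.44). It was Ly86, the secreted partner of Cd180, with 14.15, 13.92 and 14.07 on the acute and 12.48, 11.73 and 12.79 on the re-stimulated arrays (-1.71, SE 0.29, adjusted p = 0.039). Among 12 inflammasome components, again beside these shares, 1 fell and 0 rose (median -0.53). The 1 called was the sensor Nlrp3, which fell by 1.21 (adjusted p = 0.0387, and 0.0547 with the block).

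Interferon-stimulated genes varied with acute replicate 3. Of 40 tested, 1 fell (2.5%) and 0 rose, beside 1.71% of all probes lower and 1.86% higher. With the block 4 fell and 0 rose, Gbp3, Gbp5 and Parp14 being added. The median was -0.46, and 0.15, -0.34 and -1.12 for replicates 1, 2 and 3. It was 0.12 when acute replicate 3 was left out. The gene called was Irf1, an interferon regulatory factor that NF-kB also induces, with 15.29, 15.35 and 16.36 on the acute and 13.43, 13.35 and 13.77 on the re-stimulated arrays (-2.15, SE 0.32, adjusted p = 0.031). Its fall was 1.81 to 2.34 with any 1 array left out. Isg15, a ubiquitin-like protein, had 16.27, 16.05 and 17.78 on the acute and 16.78, 15.96 and 17.34 on the re-stimulated arrays (difference -0.01, and 0.53 without acute replicate 3). The immediate early genes and AP-1 factors (21 tested, median -0.10) had 0 calls in either direction, beside 3.56% of all probes. By their brightest probes the MAPK phosphatases (11 tested, median -0.10, and -0.57 without acute replicate 3) had 0 calls too. With each gene taken by its probe of smallest p, 1 of these phosphatases was called, and their median was -0.53. Among brightest probes, the members of each list with the smallest p were Zfp36, which destabilizes cytokine mRNA (-1.23, adjusted p = 0.0541, and 0.0493 with the block), and Dusp2, a nuclear phosphatase (-1.20, adjusted p = 0.0638).

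Secreted antimicrobial proteins were the list with most rises. Of 19 tested together with the formyl peptide receptors, 5 rose and 0 fell (median 0.82), beside 1.86% of all probes called higher. With the replicate block 4 rose and 1 fell. Besides Cfb these were Hp, Slpi, Saa1 and Saa3. Hp encodes haptoglobin, which binds haemoglobin, and had 12.71, 13.43 and 11.59 on the acute and 15.77, 17.07 and 16.45 on the re-stimulated arrays (3.86, SE 0.53, adjusted p = 0.026). Slpi, an inhibitor of leukocyte proteases, had 13.66, 13.84 and 13.14 on the acute and 16.68, 16.99 and 17.53 on the re-stimulated arrays (3.52, SE 0.29, adjusted p = 0.01). For neither gene did the acute arrays clear the naive ones, which had 9.305, 10.12 and 12.53 for Hp and 12.98, 13.63 and 11.802 for Slpi. For Hp the overlap was only of acute replicate 3 with naive replicate 3, and all acute arrays lay above naive replicates 1 and 2. Serum amyloid Saa1 rose by 1.71 (adjusted p = 0.0408) and Saa3 by 1.57 (adjusted p = 0.0445, and 0.0505 with the block), and as Saa1 and Saa2 are nearly identical, their probes may share signal. Lcn2 had 13.65, 14.21 and 10.22 on the acute and 16.56, 17.31 and 17.45 on the re-stimulated arrays, and its difference of 4.41 had an adjusted p of 0.0635. The granule genes S100a9, Ltf and Camp differed by -2.10, -1.61 and -1.16, with adjusted p of 0.632 or more. The block called S100a9 lower (adjusted p = 0.0236). Ltf and Camp are also among the neutrophil markers, whose sums were lower on the re-stimulated arrays of replicates 1 and 2, and the part of those cells in the list was not tested.

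Genes of arginine and nitric oxide metabolism were split. Of 13 tested, 2 rose, Arg1 and Ass1, and 0 fell (median -0.04), beside 1.86% of all probes higher and 1.71% lower. Ass1, which returns citrulline to arginine, had 12.898, 12.69 and 12.51 on the acute and 14.07, 14.46 and 14.01 on the re-stimulated arrays (1.48, SE 0.20, adjusted p = 0.0263), and both its probes were called. Nos2, the inducible nitric oxide synthase, had 12.73, 13.69 and 11.71 on the acute and 10.08, 11.59 and 12.39 on the re-stimulated arrays (difference -1.36, adjusted p = 0.316), and its groups overlapped. In the prostaglandin and leukotriene pathway (17 tested, median -0.20), Hpgd fell and Pla2g7, the phospholipase that degrades platelet-activating factor, rose by 1.24 (adjusted p = 0.0415, and 0.0517 with the block). Ptgs2, the inducible cyclooxygenase, had 14.64, 14.73 and 14.24 on the acute and 13.36, 13.67 and 14.68 on the re-stimulated arrays (difference -0.63, adjusted p = 0.362).

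Over all probes, 1.71% were called lower and 1.86% higher. Of 16 genes of antigen presentation and costimulation, 3 fell and 0 rose (median -0.83). Beside Cd83 these were Icosl, the ligand of the T cell receptor Icos, and the adhesion molecule Icam1. Icosl had 12.91, 13.22 and 11.84 on the acute and 10.46, 10.33 and 10.96 on the re-stimulated arrays (-2.07, SE 0.39, adjusted p = 0.045, and adjusted p = 0.073 with the block). Icam1 had 12.92, 13.05 and 12.34 on the acute and 10.75, 10.32 and 11.07 on the re-stimulated arrays (-2.06, SE 0.28, adjusted p = 0.026). All 3 encode surface proteins by which macrophages meet T cells. Cd40 had 14.33, 14.42 and 13.48 on the acute and 10.54, 10.17 and 12.58 on the re-stimulated arrays, and its difference of -2.98 had an adjusted p of 0.0573. Class II genes H2-Aa and H2-Ab1 differed by -1.48 and 0.43, both short of the threshold. The summed intensity of dendritic cell markers was 47938 to 100048 on the acute and 31556 to 45416 on the re-stimulated arrays. Siglech was the brightest of them, with log2 levels of 15.54 to 16.6 on the acute and 14.86 to 15.42 on the re-stimulated arrays. Siglech and Zbtb46 differed by -0.73 and -1.23, while Flt3 and the migration receptor Ccr7 differed by 1.33 and 1.35. Xcr1 and Cd209a were not above background on any array, and the part of dendritic cells in this list was not tested.

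Of 20 scavenger, lectin and phagocytic receptors, 1 fell and 0 rose (median -0.28), beside 1.71% of all probes lower and 1.86% higher. The block added Cd36, the fatty acid translocase, as lower. Mrc1, the macrophage mannose receptor, had 11.13, 11.68 and 11.06 on the acute and 9.28, 8.25 and 6.85 on the re-stimulated arrays (-3.17, SE 0.59, adjusted p = 0.0446), below all 3 naive arrays at 12.001, 12.62 and 11.35. Marco, a scavenger receptor for bacteria, had 16.805, 16.999 and 18.56 on the acute arrays and 18.82 on each re-stimulated array, the highest value the deposited table holds, so that its difference of 1.36 (adjusted p = 0.153) may be cut short. Of 16 matrix proteases and inhibitors 2 fell and 0 rose (median -0.40), beside the same shares of all probes. With the block Mmp12 and Mmp13 were called lower too. Plau, the urokinase plasminogen activator, had 8.21, 8.12 and 7.297 on the acute and 4.82, 5.36 and 5.37 on the re-stimulated arrays (-2.69, SE 0.30, adjusted p = 0.0178), and Timp2, an inhibitor of metalloproteases, fell by 1.35 (adjusted p = 0.0374).

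DNA replication and mitosis had a median of -0.98, and 7 of its 42 tested members fell while 0 rose, beside 1.71% of all probes called lower. In 24 of the 42 every re-stimulated array lay below every acute array, beside 11.9% of all probes. The median was the lowest of the 21 lists, but not with acute replicate 3 or re-stimulated replicate 2 or 3 left out, when it was -0.87, -0.72 and -0.91 and chemokines (-1.22), antigen presentation (-0.84) and cytokines (-1.02) lay lowest. The calls were Ccnb1 and Ccnb2, the cyclins of entry into mitosis, Nusap1 and Cenpe of the spindle and kinetochore, Ube2c of the anaphase-promoting complex, the proliferation marker Mki67, and Pola1 of DNA polymerase alpha. With the block 8 members were called lower, Cenpe and Pola1 no longer being among them (adjusted p = 0.0555 and 0.0512). Ccnb2 had 11.29, 11.44 and 10.45 on the acute and 8.95, 7.95 and 6.97 on the re-stimulated arrays (-3.10, SE 0.52, adjusted p = 0.039). Mki67 had 12.84, 12.61 and 12.21 on the acute and 11.53, 10.88 and 11.29 on the re-stimulated arrays (-1.32, SE 0.25, adjusted p = 0.0468). Naive arrays had 11.68, 11.91 and 10.31 for Ccnb2, overlapping with the acute arrays. The helicase subunits Mcm2, Mcm3, Mcm4 and Mcm6, which open DNA for replication, differed by -0.38, 0.09, -0.27 and -0.48 and were not called. The list's median was -0.20, -1.496 and -1.02 for replicates 1, 2 and 3.

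The lists of the respiratory chain, glycolysis and cholesterol synthesis had medians above that of all probes, and no member was called by its brightest probe, while 5 other probes of Gapdh and 1 other probe of Mvk were called higher. Of 39 respiratory chain genes 33 had higher means on re-stimulation (median 0.28), and in 15 the groups did not overlap, beside 16.5% of all probes. The members with the smallest p were Sdhb, a subunit of succinate dehydrogenase (0.58, adjusted p = 0.104) and Ndufb9 of complex I (0.46, adjusted p = 0.151). With the block, Ankrd37 of the glycolysis and hypoxia list was called (1.63, adjusted p = 0.0447, and 0.204 without it). Of the 26 genes of that list 21 had higher means (median 0.48), among them Eno1 (0.86, adjusted p = 0.0623) and the brightest Gapdh probe (0.72, adjusted p = 0.0675), whose probes lie on chromosomes 2 and X in mm9 and may measure transcripts of several near-identical copies. Of 24 genes of cholesterol synthesis 20 had higher means (median 0.54), with 0.85 and 1.24 for replicates 1 and 2 and -0.13 for replicate 3. Mvk, mevalonate kinase, differed by 1.18 (adjusted p = 0.053), while Srebf2, the transcription factor of the pathway, differed by -0.88 (adjusted p = 0.0687). The other tested probe of Srebf2 differed by 0.30 and was not called. Cholesterol efflux and oxidation (10 tested, median -0.01) and Nrf2 targets and metal handling (18 tested, median 0.08) were near the median of all probes, with Apoe at -1.22 (adjusted p = 0.0522), Cyp27a1 at -1.98 (adjusted p = 0.0522, and 0.0236 with the block), Nfe2l2 at -1.18 (adjusted p = 0.0661) and Nqo1 at 1.36 (adjusted p = 0.131).

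**Figure D4:**
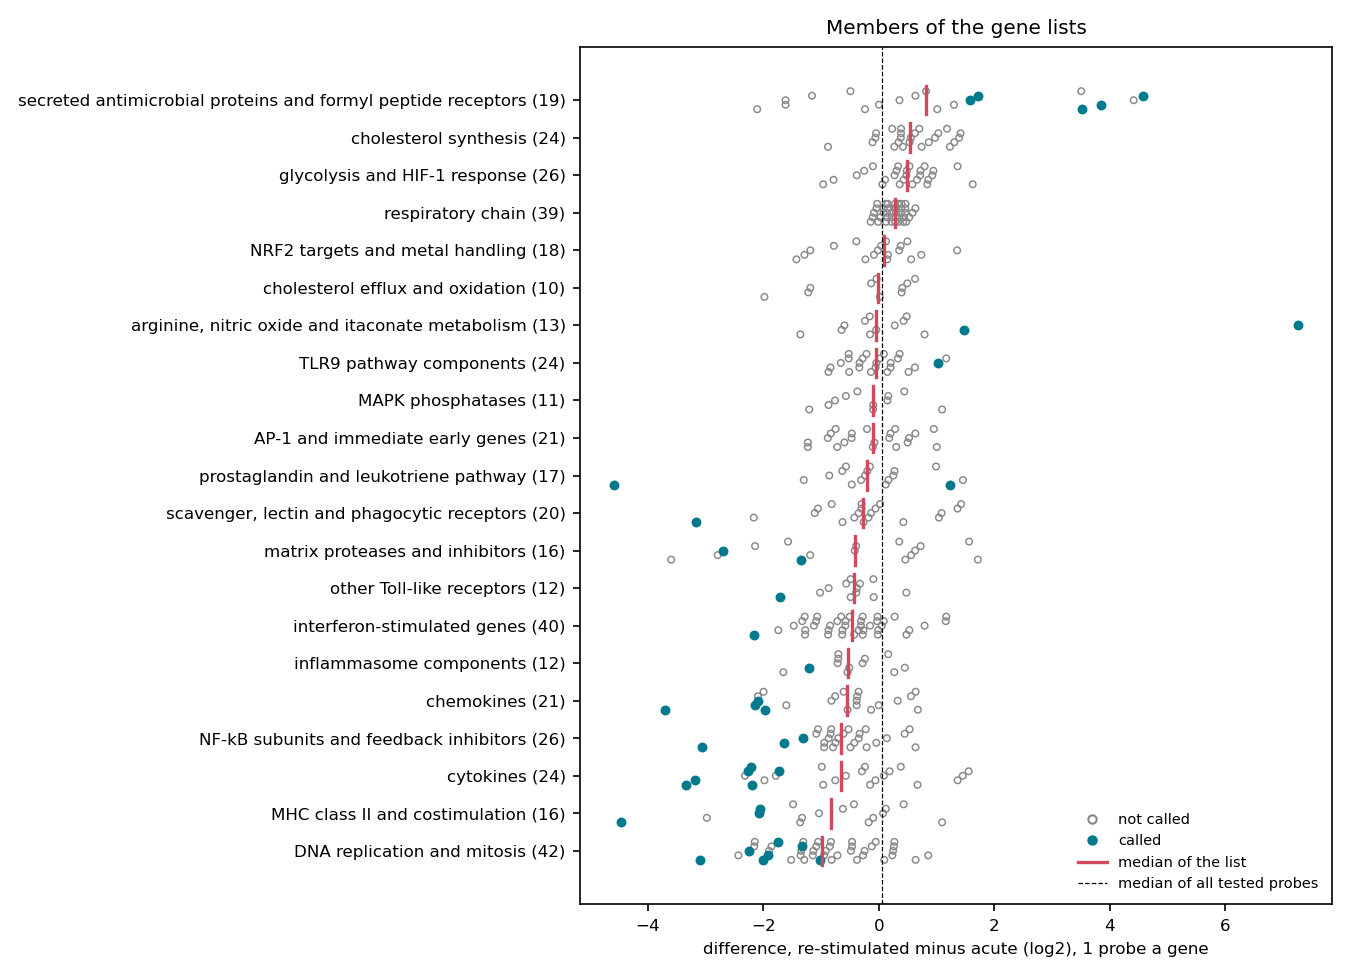
Difference between group means (re-stimulated minus acute, log2) of every tested member of the 21 gene lists, with 1 row a list, the number tested in parentheses, filled points for called members, red bars for list medians and a dashed line for the median of all tested probes (0.06). Of the medians, that of DNA replication and mitosis lies lowest (-0.98) and the antimicrobial list highest (0.82).

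The same step was measured with Poly(I:C), which TLR3 senses, and with Pam3CSK4, which TLR2 senses. Whether CpG differed from them in its change on re-stimulation was tested as a contrast between the changes. For Poly(I:C) 0 of 27782 probes were called (0%), with a smallest adjusted p of 0.187 and 2845 probes at an unadjusted p under 0.05. For Pam3CSK4, with 2 acute arrays, 0 of 26454 were called (0%), with a smallest adjusted p of 0.243 and 285 probes at an unadjusted p under 0.05. With Poly(I:C) re-stimulated replicate 3 left out, 448 probes were called against Poly(I:C), and with CpG acute replicate 3 left out, 19. The changes of single genes are therefore set side by side. Arg1 changed by 7.26 with CpG, 1.34 with Poly(I:C) and 6.53 with Pam3CSK4. Its difference from Poly(I:C) was 5.92 (95% interval 2.69 to 9.15, adjusted p = 0.328) and was not called. For Mycl1 the changes were -3.97, 2.34 and -1.55, and for Vcam1 -4.53, -0.59 and -5.31. The intervals of their differences from Poly(I:C) were -10.52 to -2.10 and -7.23 to -0.66 (adjusted p = 0.385 and 0.435). Like that of Arg1, these intervals are not adjusted for the number of probes, and the genes were chosen for their change with CpG. Clcf1, Ptgs2 and Il1b, of the cytokine and prostaglandin lists, changed by -2.27, -0.63 and 0.09 with CpG and by 1.33, 2.57 and 3.68 with Poly(I:C), with adjusted p for the difference of 0.246, 0.187 and 0.352. Mamdc2, Hpgd and Cfb changed by -5.88, -4.49 and 5.03 with Poly(I:C) and by -4.97, -3.67 and 5.11 with Pam3CSK4, beside -4.87, -4.58 and 4.57 with CpG. The 408 probes with the GT run had median changes of 0.21 with Poly(I:C) and 0.69 with Pam3CSK4, and the 62 with Gapdh sequence 0.35 and 0.94.

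**Figure D5:**
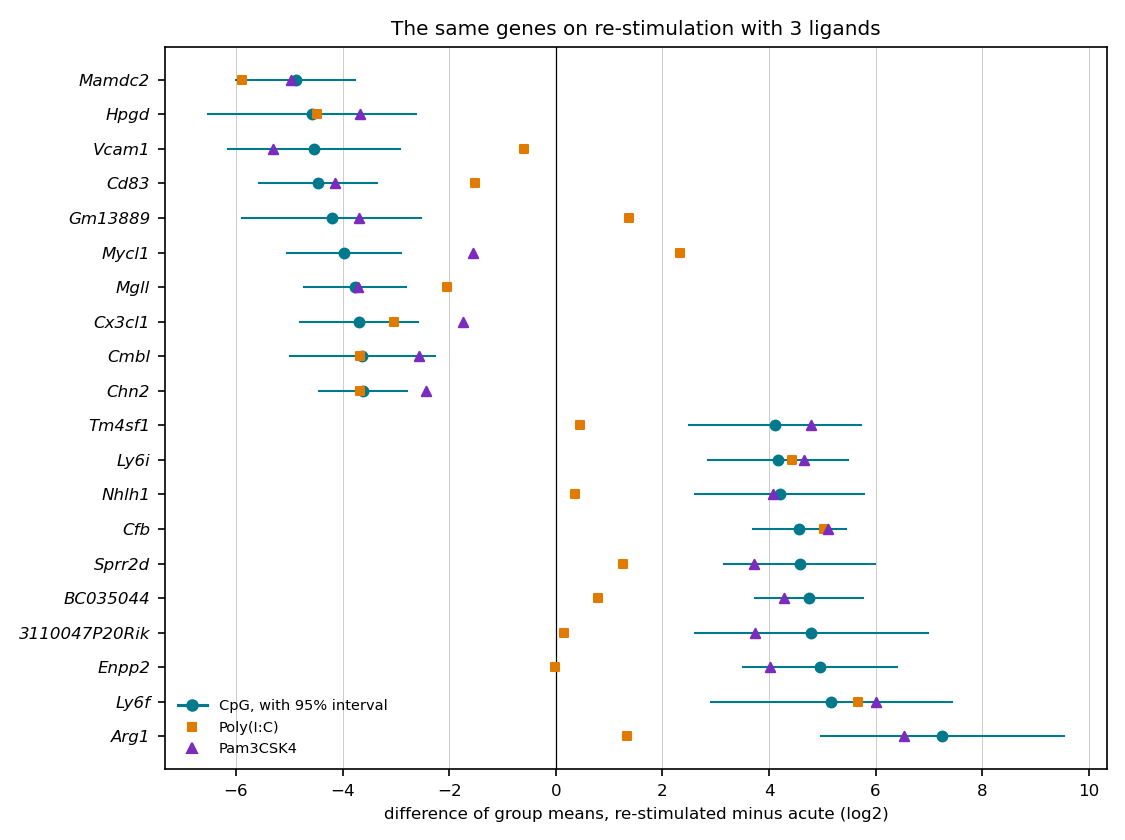
Difference between group means (re-stimulated minus acute, log2) of the 20 genes with the largest called falls and rises under CpG (circles, with 95% interval), beside the same difference under Poly(I:C) (squares) and Pam3CSK4 (triangles). The genes were chosen for their change with CpG, and no difference between ligands was called for any of them.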

How the data were processed

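RNA of BMDM cultures was labelled with Cy3 and hybridised to 1-colour Agilent mouse arrays, 1 culture an array. The scanner files, made with Agilent Feature Extraction 10.7.3.1, give each spot's intensity and local background, deposited by the authors as read and not normalized. For 25 of the 27 arrays the authors deposited a table of log2 values too, which they background-corrected by RMA and quantile-normalized. These log2 values were used here. Made again from the intensities, they differed by a median of 2.8e-10 (99.3% of tested probes within 0.001). Fractions of probes well above background are the scanner software's marks, 0 probes were saturated on the CpG arrays, and precision is limited by the number of arrays.

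Each probe was tested in R 4.3.3 with limma 3.58.1 (lmFit and eBayes, Benjamini-Hochberg over all probes tested, re-stimulated minus acute, no block). A probe was called where its adjusted p was below 0.05 and its level changed by 1.5-fold or more. Adjusted p-values throughout are limma's. The groups come from the sample labels. Replicate numbers pair the arrays: deviations from the group means correlated at 0.289, 0.482 and 0.332 for the same number and at -0.269 to -0.0688 across numbers. Such deviations cancel out over the arrays of a group, so positive values for the same number bring negative ones across numbers on average. The negative values are therefore no separate sign of pairing. The number is also the slide, and a fit with it as a block is an alternative. Whether replicates are separate mice or separate pools of marrow is not settled in the sources used here, so p-values measure only the spread between these arrays. Contrasts between ligands used the 12 arrays of CpG and Poly(I:C) and the 11 of CpG and Pam3CSK4. LPS was not used, since its acute arrays lay on slides of their own. The fits were tested on simulated data.

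Genes were named by the array files, and 17797 of the 25737 tested probes matched a RefSeq gene, of which 1719 carry another symbol there. Probe positions are those of the files (mm9), and promoters come from RefSeq (GRCm38.p6). The 21 gene lists cover the TLR9 pathway, other Toll-like receptors, cytokines, chemokines, NF-kB, AP-1, MAPK phosphatases, interferon-stimulated genes, arginine metabolism, prostaglandins, Nrf2 targets, glycolysis, cholesterol synthesis and efflux, the cell cycle, the respiratory chain, antigen presentation, scavenger receptors, antimicrobial proteins, matrix proteases and inflammasomes. A gene was represented by its brightest tested probe. Named genes are the 10 largest called falls and rises among protein-coding genes whose groups do not overlap, up to 4 called members of each list (or the 2 with the smallest p), and a fixed set of 32 immune genes. The members, lists and rules were chosen with earlier results of these data known. Alternatives were the block (fixed or random), normexp with an offset of 50, scaling to the 75th percentile or the median, other detection filters, a fit of all 9 groups, a mean-variance trend, another probe a gene and leaving out each array. Leaving out probes by sequence, and the block and left-out arrays for the lists, were added after seeing the data.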

Additional observations from a re-analysis of the deposited data

How the results depend on the processing

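The 917 calls became 2920 with a random replicate block, 1964 in 1 fit of all 9 groups, 1439 with a mean-variance trend, 1435 with median scaling and 147 without the detection filter, and 17 to 1922 with 1 array left out. Those lower (439) became 1353, 882, 723 and 87 with the random block, 9 groups, trend and no filter, and 5 to 969 with 1 array left out. Those higher (478) became 1567 with the random block, 1082 with 9 groups, 983 with median scaling, 60 with no filter, 304 without the GT and Gapdh probes (an alternative chosen after seeing the data), and 12 to 953 with 1 array left out. Median scaling thus called 983 higher and 452 lower. It moved the median of all probes from 0.06 to 0.36, and list medians are to be read against that. They became 0.33 (TLR9 pathway), -0.087 (other Toll-like receptors), -0.35 (cytokines), -0.20 (chemokines), -0.33 (NF-kB), 0.16 (prostaglandins), 0.82 (glycolysis), 0.34 (cholesterol efflux), 0.64 (respiratory chain), -0.47 (antigen presentation), 0.087 (scavenger receptors), -0.023 (matrix proteases) and -0.24 (inflammasomes). The prostaglandin median was -0.11 with the 75th percentile, and with the probe of smallest p the medians of the MAPK phosphatases and glycolysis were -0.53 and 0.61. The cause of these shifts was not tested.

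With 1 array left out, list medians ran from -1.02 to -0.50 (cytokines), -1.22 to -0.44 (chemokines), -0.57 to 0.0060 (MAPK phosphatases), -0.28 to 0.13 (prostaglandins), 0.32 to 0.59 (glycolysis), 0.19 to 0.35 (respiratory chain), -0.81 to 0.12 (interferon-stimulated genes), -0.13 to 0.36 (arginine metabolism), -0.25 to 0.16 (cholesterol efflux), 0.40 to 0.82 (cholesterol synthesis), -0.67 to -0.24 (matrix proteases), 0.018 to 0.18 (Nrf2 targets), -0.22 to -0.050 (AP-1), -0.46 to -0.19 (scavenger receptors), -0.87 to -0.48 (NF-kB), -1.21 to -0.72 (DNA replication), -0.89 to -0.77 (antigen presentation), 0.60 to 1.04 (antimicrobial proteins), -0.62 to -0.48 (inflammasomes), -0.49 to -0.35 (other Toll-like receptors) and -0.071 to -0.025 (TLR9 pathway). With normexp the median of DNA replication was -0.79, above that of antigen presentation (-0.83). Over all lists, 39 members were called, 64 with normexp and 0 to 85 with 1 array left out. With the probe of smallest p, 2 members of the TLR9 pathway, 4 of NF-kB, 4 of antigen presentation and 3 of matrix proteases were called. With the brightest probe these counts were 1, 3, 3 and 2. Differences that turned sign ran from -0.084 to 0.11 (Tlr9), -0.18 to 0.64 (Il10), -0.61 to 0.54 (Il1b), -0.84 to 1.13 (Ifnb1), -0.52 to 0.54 (Cxcl10) and -0.34 to 0.53 (Isg15). With median scaling Ifnb1, Cxcl10 and Isg15 were at 0.30, 0.31 and 0.38, and Isg15 was at 0.026 with the 75th percentile. The contrast with Poly(I:C) gave 11 calls in the fit of 9 groups and 0 to 448 with 1 array left out, and that with Pam3CSK4 1 and 0 to 4. With the fixed replicate block, 1177 probes were called, and 8 of the 90 named genes lost a call and 5 gained one, each given beside its result. The block leaves each difference of means as it is, so that no direction could change. It changed no other call of a named gene. Without the detection filter 29 of the 49 called named genes lost the call and 0 of the others gained one, while the random block added 18 calls, the mean-variance trend 14, normexp 12 and the fit of 9 groups 12.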
